A study of Homo sapiens with 8 samples.

Results

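ATF4 is the transcription factor at the centre of the integrated stress response, and 10 genes were examined here, ATF4 itself and 9 genes known as its targets (DDIT3, ATF3, TRIB3, ASNS, CHAC1, SESN2, DDIT4, PSAT1 and SLC7A11). They were chosen by name from what is known of the pathway, with earlier results of these data known. They make up 10 of the 58233 gene identifiers counted. RNA was sequenced from MCF10A-Hras cells, which derive from MCF10A, human mammary epithelium that does not form tumours, and carry oncogenic H-Ras. The 4 groups were WT (control) cells and RBM6 knockout (RBM6-KO) cells, each either untreated or exposed to 5 Gy of X-ray ionizing radiation (IR) and left to recover for 12 h. Each group had 2 libraries, A and B, from biological replicates, so 8 libraries were compared. RBM6 is an RNA-binding protein that regulates splicing. The knockout libraries came from RBM6-KO1, a single clone made with a Cas9 nickase, and so clone and genotype cannot be told apart. H-Ras and a medium that held serum, EGF, hydrocortisone, cholera toxin and insulin were common to all groups.

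Stress raises the phosphorylation of the translation factor eIF2 through 4 kinases, which respond to haem shortage, double-stranded RNA, unfolded protein in the endoplasmic reticulum and lack of amino acids. Phosphorylated eIF2 slows protein synthesis as a whole while the upstream reading frames of the ATF4 message let more ATF4 protein be made, so ATF4 is controlled to a large degree by translation, which RNA counts do not measure. ATF4 then binds, often with a C/EBP partner, to C/EBP-ATF response elements and turns on genes for amino acid synthesis, amino acid transport, redox balance and, under lasting stress, cell death. Several of these genes have a second known regulator, such as p53 for SESN2 and ATF3 and NRF2 for SLC7A11.

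The 8 libraries held 15355281 to 29832009 counts on genes, and a count of 0 allows up to 3 counts, or 0.101 to 0.195 CPM (a count scaled to the library's total), counting error only. Values per library are normalized CPM, with TMM scaling over all 8 libraries. RBM6 itself read 66.9 and 68.8 normalized CPM in the control untreated libraries and 61.5 and 63.2 in the RBM6-KO untreated ones. It read 54.5 and 48.9 in control IR and 44.01 and 33.9 in RBM6-KO IR. Its log2 fold change in RBM6-KO cells was -0.14 untreated (adjusted p = 0.712 from edgeR), so counts per gene cannot check the knockout label. Epithelial markers were read for 8 genes (KRT5, KRT14, KRT17, TP63, CDH1, EPCAM, ITGA6 and LAMB3). Their sum ran from 9171 to 11465 normalized CPM in control untreated and 8527 to 9138 in control IR. It ran from 8330 to 8642 in RBM6-KO untreated and 7053 to 7280 in RBM6-KO IR. LAMB3 made up most of it, at 5440.7 to 9540.5 per library, with KRT5 next at 1057.4 to 1623.1. The sum thus mainly followed LAMB3 and says little of markers such as EPCAM, at 5.29 to 26.7. EPCAM, an epithelial adhesion protein, was lower in RBM6-KO cells, with a log2 fold change of -1.79 untreated (adjusted p = 4.43e-05 from edgeR) and -1.82 after IR (adjusted p = 0.0151 from edgeR). CDH1, the adhesion protein E-cadherin, rose in control cells after IR, from 16.2 and 22.2 to 38.01 and 49.5 normalized CPM (log2 fold change 1.18, adjusted p = 0.0162 from edgeR). KRT14, a basal keratin, was higher in untreated RBM6-KO cells at 0.78 (adjusted p = 0.0156 from edgeR), and lower after IR at -0.90 in control and -0.96 in RBM6-KO cells (adjusted p = 0.0359 and 0.0245). The 7 markers of leukocytes, endothelium and fibroblasts summed to 10.1 to 17.0 normalized CPM, of which PTPRC, CD68, VWF and COL1A2 had no more than 4 counts in any library. Most of the sum was COL1A1 (93 to 375 counts) and PECAM1 (25 to 93 counts). PECAM1 was higher in RBM6-KO cells, with log2 fold changes of 1.16 untreated and 1.56 after IR, but was not called. PDGFRB, a fibroblast and pericyte marker, had 5 and 1 counts in control untreated and 17 and 53 in control IR cells (adjusted p = 0.0264 from edgeR). Their part in the results below was not tested. In bulk RNA, fewer cells that express a gene and less RNA per cell cannot be told apart.

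Promoter windows of 250 bases before to 50 bases after the start of transcription were taken from RefSeq (GRCh38.p14) for 9 of the 10 genes, all but SLC7A11. The core of the C/EBP-ATF response element, TGATGNAA, was searched on both strands (TTNCATCA on the other), as was the cyclic AMP response element TGACGTCA, a palindrome that shares no full match with the first. The response element core was found in the windows of 3 genes. It lay from -68 to -61 relative to the start in ASNS (first of its starts) and from -191 to -184 in ATF3 (first of its starts). In CHAC1 it lay, as the reverse complement, from -209 to -202. The other windows of ASNS and ATF3 held no match. Of all 35116 promoter windows of this length, 3.62% held this core, and 1.85% held the cyclic AMP response element, which was in no window of the 9 genes. These shares are per window, while the 3 matches are given per gene, so they are not directly comparable. ATF4, DDIT3, ATF3, TRIB3 and ASNS had several windows each. A match is a run of letters and is no evidence of binding. The windows below are those of the 3 genes with a match, followed by the first listed windows of PSAT1 and TRIB3, which passed the test in a comparison. They are written 5′ to 3′ on the gene's strand, with capitals marking the match.
ASNS (chr7:97872359-97872658, - strand): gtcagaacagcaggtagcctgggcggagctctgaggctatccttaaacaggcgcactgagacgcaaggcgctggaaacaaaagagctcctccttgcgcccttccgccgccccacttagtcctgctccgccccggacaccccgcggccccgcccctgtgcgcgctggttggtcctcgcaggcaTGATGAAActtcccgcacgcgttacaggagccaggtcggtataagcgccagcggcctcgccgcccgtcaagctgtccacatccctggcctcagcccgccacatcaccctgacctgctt
CHAC1 (chr15:40953221-40953520, + strand): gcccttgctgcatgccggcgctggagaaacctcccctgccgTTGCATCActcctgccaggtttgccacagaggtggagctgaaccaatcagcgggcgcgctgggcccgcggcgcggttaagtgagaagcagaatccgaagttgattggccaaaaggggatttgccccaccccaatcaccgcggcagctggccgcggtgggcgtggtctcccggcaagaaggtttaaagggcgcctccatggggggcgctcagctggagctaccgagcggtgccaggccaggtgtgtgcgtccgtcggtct
ATF3 (chr1:212565157-212565456, + strand): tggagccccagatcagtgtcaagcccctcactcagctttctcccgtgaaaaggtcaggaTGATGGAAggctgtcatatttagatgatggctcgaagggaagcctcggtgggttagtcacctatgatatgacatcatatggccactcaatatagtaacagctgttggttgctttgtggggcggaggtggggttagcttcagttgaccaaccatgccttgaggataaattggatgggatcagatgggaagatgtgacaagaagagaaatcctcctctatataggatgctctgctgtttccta
PSAT1 (chr9:78296875-78297174, + strand): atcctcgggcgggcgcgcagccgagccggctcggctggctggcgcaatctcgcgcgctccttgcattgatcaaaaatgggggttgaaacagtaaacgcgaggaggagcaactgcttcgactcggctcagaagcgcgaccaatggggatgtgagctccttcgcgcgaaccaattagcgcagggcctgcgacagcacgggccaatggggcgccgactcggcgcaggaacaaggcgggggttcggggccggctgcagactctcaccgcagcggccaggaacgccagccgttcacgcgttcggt
TRIB3 (chr20:381045-381344, + strand): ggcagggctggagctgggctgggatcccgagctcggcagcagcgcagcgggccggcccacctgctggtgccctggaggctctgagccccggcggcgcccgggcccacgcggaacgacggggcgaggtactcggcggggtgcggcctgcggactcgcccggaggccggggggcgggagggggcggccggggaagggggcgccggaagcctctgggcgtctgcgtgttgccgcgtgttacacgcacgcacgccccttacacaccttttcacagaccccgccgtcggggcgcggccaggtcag

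The 10 genes spanned a wide range of levels. Divided by the summed length of each gene's exons, in control untreated cells the level was 194 ± 14.1 normalized CPM per kb for ATF4 (SD, n = 2), 76.2 ± 0.203 for DDIT4 and 42.5 ± 2.52 for TRIB3. PSAT1 had 21.1 ± 1.09 and SESN2 had 11.4 ± 0.747 CPM per kb. DDIT3 (6.08 ± 2.02), ASNS (5.09 ± 0.162) and SLC7A11 (5.05 ± 1.75 CPM per kb) did not differ beyond their spread. CHAC1 (0.772 ± 0.0933) and ATF3 (0.349 ± 0.190 CPM per kb) were the lowest, with 14 to 38 counts per library for CHAC1 and 13 to 103 for ATF3, so their changes have wide intervals. All 10 passed the filter on low counts in every comparison.

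**Figure D1:**
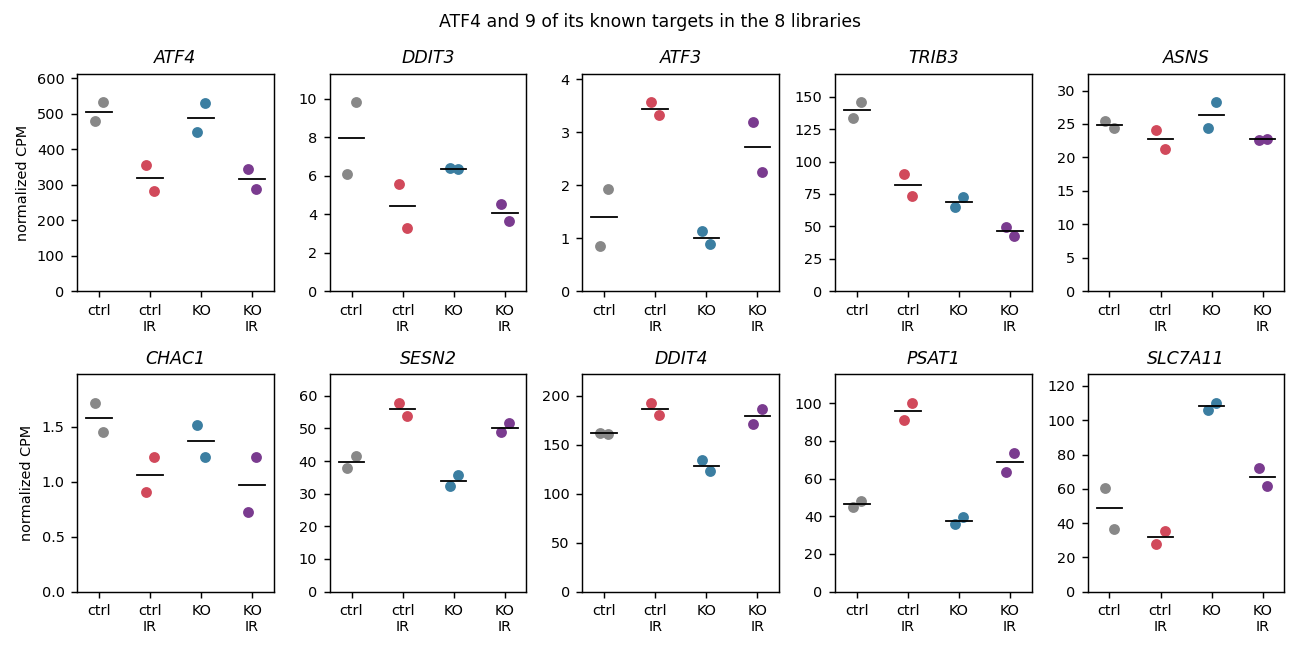
Normalized CPM (linear axis from 0, own scale for each gene) of ATF4 and 9 known targets in the 4 groups (ctrl, control; KO, RBM6-KO; IR, 12 h after 5 Gy); each point is 1 library and each bar the mean of 2. ATF4 sits lower in both IR groups, TRIB3 lower and SLC7A11 higher in RBM6-KO cells, and PSAT1 higher after IR.

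The first question was whether loss of RBM6 altered these genes in untreated cells. TRIB3 was lower and SLC7A11 higher in RBM6-KO cells, while ATF4 mRNA itself was at the level of control. A gene was called at a Benjamini-Hochberg adjusted p under 0.05 over all genes tested together with at least a 2-fold change, by edgeR's quasi-likelihood test. By this rule 2 of the 10 genes were called, against 3.12% of all 15556 genes tested (1.16% higher and 1.97% lower). With the adjusted p alone the same 2 genes passed, against 6.12% of all genes. The median log2 fold change of the 10 genes was -0.28, with 8 below 0 and 2 above. As all p-values here rest on 2 libraries a group, they measure the spread between these libraries.

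TRIB3 (chromosome 20, 362835 to 397559), a pseudokinase that binds ATF4 and CHOP and restrains them in a feedback loop, had 134 and 146 normalized CPM in the control untreated libraries and 65.0 and 72.7 in the RBM6-KO untreated ones. Both knockout libraries were well below both control libraries, and the groups did not overlap. Its log2 fold change was -1.04 (SE 0.14, 95% interval -1.34 to -0.73, adjusted p = 0.000188 from edgeR). That value lies just past the 2-fold limit, and without RBM6-KO untreated library A or control untreated library B it was -0.97 or -0.96, within 2-fold with the adjusted p still under 0.05. For the 418 other tested genes of chromosome 20 the median between untreated genotypes was -0.27 on the log2 scale, 322 of them below 0, and TRIB3 was 33rd from the lowest on the chromosome. Minus that median, the value for TRIB3 was -0.77.

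SLC7A11 (chromosome 4, 138164097 to 138242349), the cystine importer that supplies glutathione synthesis, had 60.6 and 36.7 normalized CPM in control untreated cells and 106 and 110.2 in RBM6-KO untreated cells. Both knockout libraries lay above both control libraries, which were themselves far apart. Its log2 fold change was 1.14 (SE 0.19, 95% interval 0.74 to 1.54, adjusted p = 0.000958 from edgeR). Without control untreated library B it was 0.83 (adjusted p = 0.0244 from edgeR), no longer 2-fold, and without library A it was 1.54. SLC7A11 had the lowest GC content of the 10 genes (35.4%) and TRIB3 the highest (61.5%), and over all genes the fold changes in this comparison fell with GC content (rho = -0.293 by Spearman over 15444 genes, a description across genes that are no replicates). With the trends on GC content, length and expression removed, SLC7A11 stood at 0.89 and TRIB3 at -0.86 on the log2 scale.

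Of the transcription factors of the pathway, ATF4 was close between the genotypes, and DDIT3 and ATF3 were not called. ATF4 (chromosome 22, 39519695 to 39522683) had 480.3 and 532 normalized CPM in control untreated cells and 448 and 531 in RBM6-KO untreated cells, overlapping groups with a log2 fold change of -0.06 (95% interval -0.36 to 0.23). DDIT3, which encodes the pro-apoptotic factor CHOP, was at 6.08 and 9.82 in control and 6.42 and 6.33 in RBM6-KO untreated cells, a log2 fold change of -0.34 with an interval of -0.90 to 0.23. ATF3, an early stress factor of the same bZIP family, was at 0.859 and 1.93 in control and 1.13 and 0.884 in RBM6-KO untreated cells. Its log2 fold change was -0.49, with an interval of -1.52 to 0.54. The intervals of DDIT3 and ATF3 are wide enough to hold changes that these depths could not show. DDIT3 is also uncertain in itself, since it overlaps MARS1 (2238 to 4189 counts) and MBD6 (847 to 2145 counts) on the opposite strand, has only 74 to 183 counts, and the use of strand in counting is not given in the sources used here.

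The other genes did not pass the test between untreated genotypes. DDIT4 (also called REDD1), an inhibitor of the growth kinase mTORC1, had 162 and 161 normalized CPM in control and 134 and 123 in RBM6-KO untreated cells. These groups did not overlap, but its log2 fold change of -0.34 (SE 0.14) had an adjusted p of 0.185 in edgeR. PSAT1, an enzyme of serine synthesis, had 44.9 and 48.3 in control and 35.7 and 39.5 in RBM6-KO untreated cells, a log2 fold change of -0.32 (interval -0.66 to 0.01). SESN2, a leucine-binding inhibitor of mTORC1, was at 37.8 and 41.4 against 32.4 and 35.6 normalized CPM, with an interval of -0.58 to 0.12. ASNS, which makes asparagine, had 25.5 and 24.4 in control and 24.4 and 28.2 in RBM6-KO cells, with an interval of -0.31 to 0.44. CHAC1, an enzyme that breaks down glutathione, had 1.72 and 1.45 against 1.52 and 1.22 normalized CPM and an interval of -1.09 to 0.67.

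After IR the same comparison called 0 of the 10 genes, against 1.17% of 15587 genes tested (0.353% higher and 0.815% lower), and by the adjusted p alone it also passed 0 of them, against 1.21%. At an unadjusted p under 0.05 there were 3 of them, SLC7A11, TRIB3 and PSAT1, beside 1731 of all 15587 genes. SLC7A11 had 27.8 and 35.4 normalized CPM in control IR and 71.9 and 61.8 in RBM6-KO IR cells. Each knockout library was again above each control library. The log2 fold change was 1.08 (SE 0.20, adjusted p = 0.0585 from edgeR). Over 12 alternatives it stayed between 0.88 and 1.26, and 7 of them called it, among them DESeq2's Wald test (adjusted p = 0.00047) and the fit without control IR library B (1.26), with adjusted p from 7.14e-05 to 0.136 overall. TRIB3 had 90.8 and 73.3 in control IR and 49.5 and 42.8 in RBM6-KO IR cells, a log2 fold change of -0.82 (SE 0.18, adjusted p = 0.103 from edgeR). The other genes of chromosome 20 had a median of -0.25 here, and TRIB3 minus that median was -0.57. PSAT1 had 91.3 and 100.3 in control IR and 63.5 and 73.8 in RBM6-KO IR cells, a log2 fold change of -0.48 (SE 0.16, adjusted p = 0.322 from edgeR). The 8 libraries are shared among the comparisons, so these values are not independent of those on IR.

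ATF4 after IR was at 357 and 283 normalized CPM in control cells and 345 and 288 in RBM6-KO cells, again overlapping, with an interval of -0.43 to 0.41 for the log2 fold change between genotypes. ASNS (24.1 and 21.3 against 22.7 and 22.8) and DDIT4 (193 and 181 against 171 and 186) overlapped between the genotypes as well. Their intervals on the log2 scale were -0.43 to 0.45 for ASNS and -0.40 to 0.29 for DDIT4. SESN2 was at 57.9 and 53.8 against 49.0 and 51.5 normalized CPM, with an interval of -0.52 to 0.23. For DDIT3, ATF3 and CHAC1 the intervals were -0.85 to 0.69, -1.03 to 0.38 and -1.20 to 0.90.

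**Figure D2:**
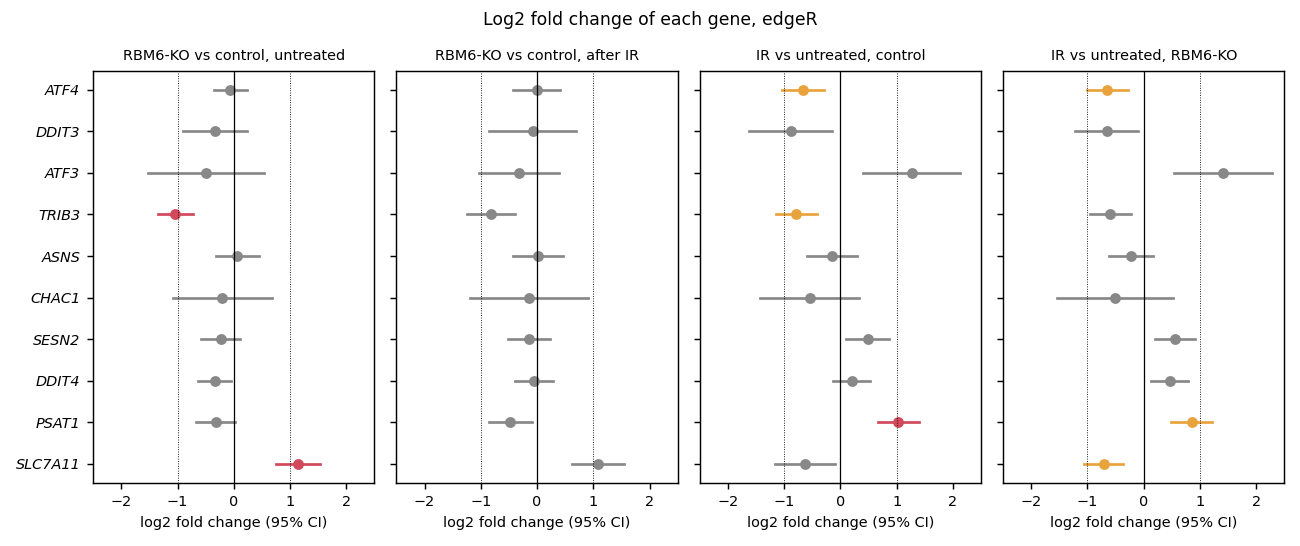
Log2 fold change of each gene (points) with its 95% interval (lines) from edgeR in the 4 comparisons; red marks called genes, amber an adjusted p under 0.05 with less than a 2-fold change, grey the rest, and dotted lines the 2-fold limits. TRIB3 (-1.04) and SLC7A11 (1.14) are the called genes between untreated genotypes, and PSAT1 (1.03) is the called gene after IR in control cells.

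The second question was how the genes responded to IR. In control cells PSAT1 rose and ATF4 and TRIB3 were lower with a change of less than 2-fold, so that ATF4 mRNA and one of its best known biosynthetic targets stood on opposite sides of 0. The rule called 1 of the 10 genes in control cells, against 3.59% of 15412 genes tested (1.68% higher and 1.91% lower). The adjusted p alone passed 3 of them, against 5.72%. In RBM6-KO cells the rule called 0 of the 10, against 3.11% of 15598 genes (1.13% higher and 1.97% lower), and the adjusted p alone passed 3, namely ATF4, PSAT1 and SLC7A11, against 5.67%. At an unadjusted p under 0.05 there were 8 of the 10 in RBM6-KO cells, all but ASNS and CHAC1, beside 4613 of all 15598 genes. In control cells they were ATF4, DDIT3, ATF3, TRIB3, SESN2, PSAT1 and SLC7A11, beside 3918 of all 15412 genes. DESeq2's Wald test also called 0 of the 10 in RBM6-KO cells. The median log2 fold change of the 10 genes was -0.34 in control cells and -0.37 in RBM6-KO cells, with 6 below 0 and 4 above in each genotype.

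ATF4 mRNA went from 480.3 and 532 normalized CPM in control untreated to 357 and 283 in control IR cells, a log2 fold change of -0.67 (SE 0.17, adjusted p = 0.0443 from edgeR). In RBM6-KO cells it went from 448 and 531 to 345 and 288, a log2 fold change of -0.65 (SE 0.16, adjusted p = 0.0488 from edgeR). All 4 irradiated libraries were below all 4 untreated ones. With the trends on GC content, length and expression removed the values were -0.45 and -0.48. The pseudogene ATF4P3, a near copy of ATF4, had 145 to 292 counts and ATF4P4 had 23 to 60, beside 5514 to 9926 for ATF4, and reads of the copies could be split between them.

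Among the other transcription factors and their feedback regulator, DDIT3 was lower and ATF3 higher after IR in each genotype without passing the test. DDIT3 was at 5.57 and 3.28 normalized CPM in control IR and 4.54 and 3.62 in RBM6-KO IR cells, log2 fold changes of -0.89 (SE 0.33, adjusted p = 0.131 from edgeR) and -0.66 (SE 0.25, adjusted p = 0.119). ATF3 was at 3.56 and 3.32 in control IR and 3.199 and 2.25 in RBM6-KO IR cells, all above the untreated libraries. Its log2 fold changes were 1.27 (SE 0.39, adjusted p = 0.0762 from edgeR) and 1.41 (SE 0.39, adjusted p = 0.0617), more than 2-fold but short of the threshold. With no filter on low counts ATF3 was called in both genotypes. In control cells it was also called without control IR library A (1.23) or control untreated library B (1.98), while without control untreated library A it was at 0.80. In RBM6-KO cells it was also called without RBM6-KO IR library B (1.65) or RBM6-KO untreated library A (1.61). DDIT3 was called in control cells without control IR library A, at -1.27. TRIB3 in control cells had a log2 fold change of -0.78 (SE 0.17, adjusted p = 0.0262 from edgeR), and in RBM6-KO cells -0.59 (SE 0.16, adjusted p = 0.0581). With the GC, length and expression trends removed these were -0.50 and -0.38.

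Among the genes for amino acids and redox balance, PSAT1 (chromosome 9, 78297125 to 78330093) rose from 44.9 and 48.3 normalized CPM to 91.3 and 100.3 in control cells. The irradiated control libraries were the highest of all 8. The log2 fold change was 1.03 (SE 0.17, 95% interval 0.67 to 1.39, adjusted p = 0.00785 from edgeR). It lies at the 2-fold limit, with 0.96 without control IR library B and 0.96 without control untreated library A (adjusted p = 0.0799 from edgeR). With upper-quartile scaling it was 0.98, also below 2-fold. In RBM6-KO cells PSAT1 went from 35.7 and 39.5 to 63.5 and 73.8, a log2 fold change of 0.85 (SE 0.16, adjusted p = 0.0256 from edgeR). SLC7A11 was lower after IR, with a log2 fold change of -0.71 in RBM6-KO cells (SE 0.15, adjusted p = 0.0369 from edgeR) and -0.63 in control cells (SE 0.24, adjusted p = 0.141). In control cells that value was -0.24 without control untreated library A and -0.94 without library B. ASNS was nearly level, at -0.15 (interval -0.59 to 0.30) in control and -0.23 (interval -0.62 to 0.17) in RBM6-KO cells. CHAC1 was at 0.906 and 1.22 normalized CPM in control IR and 0.722 and 1.22 in RBM6-KO IR cells, with intervals of -1.42 to 0.34 and -1.54 to 0.52.

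The inhibitors of mTORC1 were higher after IR in both genotypes but below the threshold. SESN2 had 57.9 and 53.8 normalized CPM in control IR and 49.0 and 51.5 in RBM6-KO IR cells, above each of the 4 untreated libraries (32.4 to 41.4). Its log2 fold changes were 0.49 (SE 0.18, adjusted p = 0.119 from edgeR) and 0.55 (SE 0.16, adjusted p = 0.0664). DDIT4 had log2 fold changes of 0.20 in control cells (SE 0.15, adjusted p = 0.426 from edgeR) and 0.46 in RBM6-KO cells (SE 0.15, adjusted p = 0.0818).

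Whether the IR response differed by genotype was tested with an interaction contrast fitted to the 8 libraries together. It called 0 of the 10 genes, against 0% of 16549 genes tested, and 306 of all genes had an unadjusted p under 0.05 in edgeR, none of the 10 among them. DESeq2's Wald test also called 0 genes, with 164 at an unadjusted p under 0.05. The log2 difference in response, RBM6-KO minus control, was 0.27 for DDIT4 (interval -0.13 to 0.66), 0.19 for TRIB3 (-0.29 to 0.68), -0.17 for PSAT1 (-0.63 to 0.29) and 0.03 for ATF4 (-0.47 to 0.54). For SLC7A11 it was -0.08 (-0.76 to 0.61), and for ATF3 0.15 (-1.10 to 1.39). These intervals do not show that the responses were alike.

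The same libraries were checked for the response of p53 to IR, since p53 is a known regulator of several of the 10 genes. Of 10 other p53 targets, 9 were called higher in control cells and 8 in RBM6-KO cells, beside 1.68% and 1.13% of all genes. None was called lower, all 10 were above 0 in both genotypes, and the median log2 fold changes were 1.43 and 1.40. These counts depend on the list. TNFRSF10B, GADD45A, BBC3 and PMAIP1 are also known p53 targets, but were listed with the targets of ATF4 or CHOP. None of them was called after IR in either genotype. In control cells they were at 0.68, 0.66, 0.45 and 0.59. GDF15, a stress cytokine that is a target of both p53 and ATF4 or CHOP, was counted in both lists. It had 60.2 and 67.0 normalized CPM in control untreated and 406 and 381 in control IR cells. In RBM6-KO cells it had 40.4 and 39.3 before and 311 and 302 after IR. The log2 fold changes were 2.62 (SE 0.17, adjusted p = 4.14e-05 from edgeR) and 2.93 (SE 0.15, adjusted p = 7.75e-05). CDKN1A, the p21 inhibitor of the cell cycle, rose by 1.80 and 2.02 on the log2 scale (adjusted p = 0.000536 and 0.00051 from edgeR).

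Upstream of ATF4, none of the 4 eIF2 kinases was called in any comparison. From 1.17% to 3.59% of all genes were called in the genotype and IR comparisons. At these shares a list this short can hold no call without differing from other genes. EIF2AK1 (HRI) ran from 140 to 166 and EIF2AK4 (GCN2) from 115 to 148 normalized CPM over the 8 libraries. EIF2AK2 (PKR) ran from 60.0 to 79.9, with its largest value between genotypes at a log2 fold change of 0.28 in untreated cells (adjusted p = 0.331 from edgeR). EIF2AK3 (PERK) ran from 4.49 to 12.1, with log2 fold changes after IR of 0.60 in control (SE 0.30, adjusted p = 0.232 from edgeR) and 0.49 in RBM6-KO cells (SE 0.26, adjusted p = 0.245). Of 10 subunits of eIF2, its exchange factor eIF2B and the eIF2 phosphatase, none was called either. EIF2S2 was at -0.60 and EIF2S3 at 0.40 in control cells after IR, and at -0.71 and 0.53 in RBM6-KO cells (adjusted p = 0.0575 to 0.142 from edgeR).

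Of 10 partners and regulators of ATF4, FOS fell and JDP2 rose in untreated RBM6-KO cells, where 3.12% of all genes were called. FOS, an AP-1 subunit, had 37.8 and 35.9 normalized CPM in control and 16.6 and 15.1 in RBM6-KO untreated cells, a log2 fold change of -1.23 (SE 0.18, adjusted p = 0.000338 from edgeR). JDP2, a repressor of the same bZIP class that opposes ATF3 and AP-1 targets, had 10.2 in each control untreated library and 20.7 and 24.4 in the RBM6-KO untreated ones, a log2 fold change of 1.13 (SE 0.20, adjusted p = 0.00183 from edgeR). After IR FOS rose in RBM6-KO cells to 34.0 and 40.7 (log2 fold change 1.22, adjusted p = 0.0141 from edgeR), and in control cells it reached 63.8 and 68.0 (log2 fold change 0.83, adjusted p = 0.0221). Between genotypes after IR FOS was at -0.81 and JDP2 at 1.07, and neither was called. The other 8 genes of this list, with CEBPB, CEBPG, ATF5 and NUPR1 among them, were not called in any comparison.

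For the rest of the amino acid programme the shares of all genes called were again 1.17% to 3.59%. Of 12 other enzymes of amino acid and one-carbon synthesis, none was called in any comparison. Between untreated genotypes 11 of the 12 were below 0, with a list median of -0.30 beside 0.01 over all genes. GPT2, an alanine aminotransferase, was the one with an adjusted p under 0.05, at -0.63 (SE 0.17, adjusted p = 0.0298 from edgeR). PHGDH and PSPH, the enzymes before and after PSAT1 in serine synthesis, were not called after IR. PHGDH was at -0.43 in control and -0.47 in RBM6-KO cells (adjusted p = 0.168 and 0.107 from edgeR), and PSPH at 0.58 in RBM6-KO cells (adjusted p = 0.0818). Of 13 cytosolic tRNA synthetases none was called, and the nearest was IARS1 after IR, at 0.53 and 0.57 (adjusted p = 0.0678 and 0.0777 from edgeR).

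Of 10 amino acid transporters beside SLC7A11, the glycine transporter SLC6A9 fell in untreated RBM6-KO cells, where 3.12% of all genes were called. It had 7.43 and 9.07 normalized CPM in control and 3.04 and 4.15 in RBM6-KO untreated cells, a log2 fold change of -1.22 (SE 0.27, adjusted p = 0.0103 from edgeR). Between genotypes after IR SLC6A9 was at -1.12 and was not called. SLC7A5, a leucine importer, was lower after IR in RBM6-KO cells, at 361 and 352 from 535 and 690.2 (log2 fold change -0.80, adjusted p = 0.0301 from edgeR). In control cells SLC7A5 was at -0.11, with 681 and 545 from 624 and 692, and the interaction called none of these transporters. Its partner chain SLC3A2, which SLC7A11 also needs at the membrane, was at -0.54 after IR in RBM6-KO cells (adjusted p = 0.0747 from edgeR) and -0.21 in control cells.

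Of 17 other genes known as targets of ATF4 or CHOP, 16 were tested, FGF21 having no counts. Between untreated genotypes TXNIP, an inhibitor of thioredoxin and glucose uptake, fell from 570 and 711 to 302 and 240.1 normalized CPM, a log2 fold change of -1.25 (SE 0.16, adjusted p = 7.27e-05 from edgeR). A further 4 passed the adjusted p, which 6.12% of all genes did, with less than 2-fold change: STC2 was higher at 0.87, and GDF15 (-0.69), VEGFA (-0.70) and BBC3 (-0.90) were lower. Between genotypes after IR TXNIP was at -0.80 and was not called. In the response to IR, GDF15, which is also in the p53 list, was the called gene of this list in each genotype. TNFRSF10B, a death receptor, passed the adjusted p in both, at 0.68 and 0.82. GADD45A, a growth arrest gene, was at 0.66 in control cells (adjusted p = 0.0392 from edgeR), and EIF4EBP1, a translation repressor, was at -0.83 in control cells (adjusted p = 0.0331 from edgeR).

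**Figure D3:**
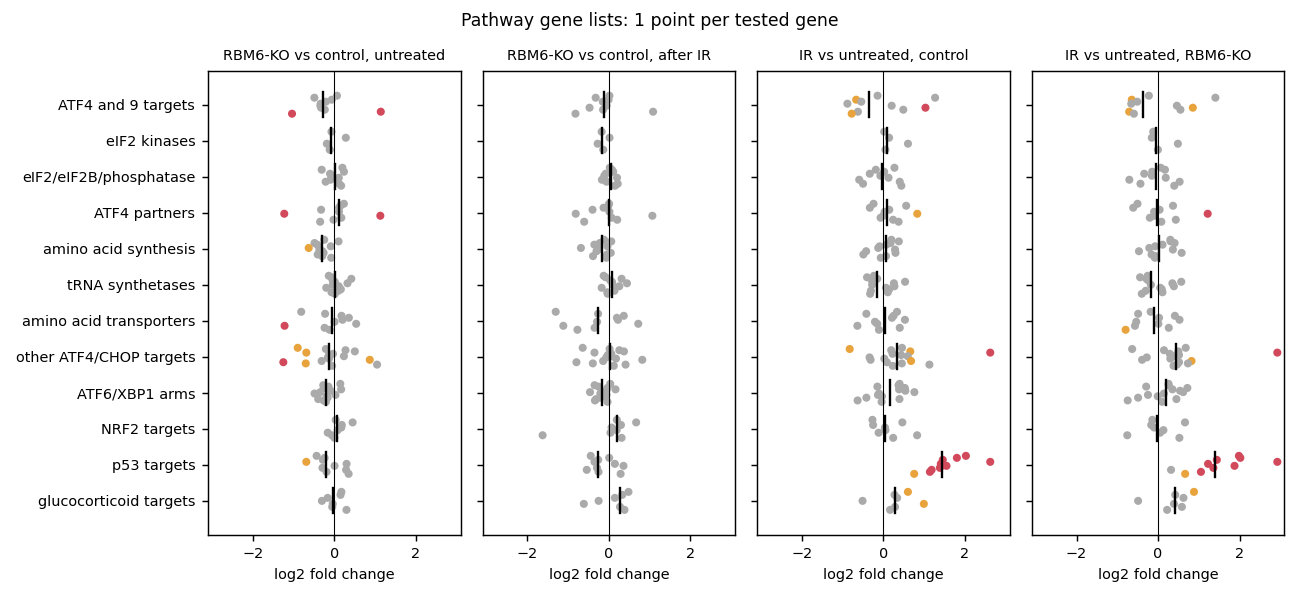
Log2 fold change (edgeR) of every tested gene of 12 pathway lists in the 4 comparisons; 1 point is 1 gene, red called, amber an adjusted p under 0.05 with less than a 2-fold change, grey the rest, and black bars are list medians. The genes of the p53 list lie to the right of 0 after IR (medians 1.43 and 1.40). ATF4 and its targets spread to both sides (medians -0.34 and -0.37). Some known p53 targets stand in the list of ATF4 or CHOP targets, and GDF15 stands in both lists.

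SLC7A11 had the widest spread of group means among the 10 genes, 1.78 on the log2 scale. From lowest to highest its group means were those of control IR, control untreated, RBM6-KO IR and RBM6-KO untreated, although one control untreated library (60.6) was within 2 normalized CPM of the lower RBM6-KO IR library (61.8). Of 16549 genes, the 3 with the most similar pattern over the 8 libraries, by the root mean square difference of centred log2 CPM, were ADAMTS6 (0.177), AMY2B (0.182) and ATP2B1 (0.183). ADAMTS6 had 24.1 and 18.9 normalized CPM in control untreated, 13.7 and 20.3 in control IR, 44.1 and 44.4 in RBM6-KO untreated and 35.6 and 29.9 in RBM6-KO IR cells.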

How the data were processed

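RNA libraries were prepared with a TruSeq mRNA kit and sequenced in paired-end mode. The authors deposited raw counts per Ensembl gene for 8 libraries, aligned to hg38, and their processing notes name STAR and DESeq2. The counting tool, annotation and strand setting are not given in the sources used here. Symbols and positions came from GENCODE v44, which holds 57392 of 58233 identifiers (841 were without a symbol). The 10 genes and the pathway lists were chosen with earlier results of these data known. Counts were tested in R 4.3.3 with edgeR 4.0.16 (TMM, filterByExpr, quasi-likelihood), each comparison on its own 4 libraries and the interaction on all 8. The SE of a log2 fold change is its size over the square root of F, and intervals are 95%. Named were all 10 genes, called genes of each list (at most 4) or else its 2 smallest p-values, the eIF2 kinases, GDF15, CDKN1A and 3 genes nearest in pattern. Some values past the adjusted p alone, PSPH and SLC3A2 were named after their values were seen. The test was checked on simulated counts. Alternatives were other scalings, DESeq2 1.42.0, other filters, a replicate block, all libraries in 1 fit, each library left out, and, chosen after seeing the data, a crossed block and removal of the GC, length and expression trends and of the chromosome 20 median. Replicates differed by more than sampling noise (mean chi-square per gene 11.3 to 34.1). Deviations of same-letter libraries correlated at -0.28 to 0.35, with 0.35 between control IR and RBM6-KO IR. With 2 libraries a group and no label that ties letters to a shared batch, letters were not treated as pairs.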

Additional observations from a re-analysis of the deposited data

How the results depend on the processing

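The number of the 10 genes called between untreated genotypes was 2 in the report and 2 under all alternative tests that kept every library, and 0 to 2 with a library left out (0 without control untreated B, 1 without RBM6-KO untreated A). The adjusted values, which carry no test, were below 2-fold: SLC7A11 at 0.89 and TRIB3 at -0.86 with the GC, length and expression trends removed, and TRIB3 at -0.77 minus the chromosome 20 median. After IR it was 0 in the report and 1 (SLC7A11) with DESeq2 size factors, upper-quartile scaling, DESeq2's Wald test, no filter, the replicate block or all 8 libraries in 1 fit, and 0 to 1 with a library left out. For IR in control cells it was 1 in the report, 0 with upper-quartile scaling, 2 with no filter, 3 with the adjusted p alone, 2 with the replicate block and 0 to 3 with a library left out. For IR in RBM6-KO cells it was 0 in the report, 1 with no filter, 3 with the adjusted p alone, and 0 to 1 with a library left out. Nothing in the labels makes letters A and B pairs, though the deviations of same-letter libraries correlated at 0.35 between control IR and RBM6-KO IR, where the replicate block gave more calls. A block with the letters crossed called 2 of the 10 genes (965 of all genes) for IR in control and 1 (1222 of all genes) in RBM6-KO cells. The interaction called 0 of the 10 under all alternative tests. A fit with a library left out assumes that the lone library varies like the others.

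Over all genes, calls between untreated genotypes were 486 in the report and 952 with the adjusted p alone, and the interaction had 0 calls, or 1 with no filter. Calls after IR between genotypes were 182 in the report, 280 with DESeq2, 506 with no filter, 71 with at least 10 counts in every library, 541 with the replicate block, 340 with all 8 libraries, and 169 to 477 with a library left out (without RBM6-KO IR B and control IR B). Calls for IR were 553 in control and 485 in RBM6-KO cells, against 962 and 1011 with no filter, 881 and 884 with the adjusted p alone, and 287 to 1406 (without control untreated B and control IR A) and 289 to 1563 (without RBM6-KO IR B and RBM6-KO IR A) with a library left out. The split of higher and lower genes for IR was 259 and 294 in control and 177 and 308 in RBM6-KO cells, and with DESeq2 253 and 172, and 208 and 237. No called value of the 10 genes changed sign. Of the 10 values in each comparison, called or not, 4 between untreated genotypes, 6 between genotypes after IR and 7 of the interaction changed sign in at least 1 alternative. None of the 20 values for IR did.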

Other observations

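Stress pathways next to the integrated stress response were read as short lists, beside 1.17% to 3.59% of all genes called in the genotype and IR comparisons. At these shares such a list can hold no call without differing from other genes. Of 14 genes of the ATF6 and XBP1 arms of the unfolded protein response, none was called in any comparison. Between untreated genotypes 11 of the 14 were below 0, with a median log2 fold change of -0.20 beside 0.01 over all genes. PDIA4, a protein disulphide isomerase, was at -0.40 (adjusted p = 0.112 from edgeR). After IR DNAJB9, a chaperone partner of the endoplasmic reticulum, was at 0.72 in RBM6-KO cells (adjusted p = 0.082 from edgeR) and ERN1, the IRE1 stress sensor, at 0.76 in control cells (adjusted p = 0.0803 from edgeR).

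Of 8 NRF2 targets other than SLC7A11 none was called. GCLC, which makes the first step of glutathione synthesis, was at 0.45 between untreated genotypes (adjusted p = 0.123 from edgeR), beside 1.14 for SLC7A11. Of 7 glucocorticoid receptor targets, a pathway that also acts on DDIT4, none was called. DUSP1, a phosphatase that switches off MAP kinases, passed the adjusted p after IR in both genotypes, at 0.60 in control (adjusted p = 0.0495 from edgeR) and 0.88 in RBM6-KO cells (adjusted p = 0.0219), and SGK1 did so in control cells at 0.99 (adjusted p = 0.0487).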
